A study of Mus musculus with 15 samples.

Results

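The 8 genes described here, Gcg, Irx1, Irx2, Pou3f4, Gc, Ttr, Slc7a2 and Slc38a5, are expressed in the glucagon-secreting alpha cells of pancreatic islets. They were found by their symbols in a count table of 24060 entries, where each had 1 row, and all 8 were among the 15460 genes that passed the filter on low counts. RNA was sequenced from whole islets of FVB/NJ mice aged 9 to 10 weeks, in 5 groups of 3 libraries. The rIAPP mice carried a rodent islet amyloid polypeptide (IAPP) transgene under the insulin II promoter, and the hIAPP mice a human one under the same promoter. The hIAPP_hCAST mice carried the human IAPP transgene together with a human CAST transgene under an insulin promoter, the hCAST mice carried human CAST alone under the insulin II promoter, and the WT mice had no transgene. IAPP is a peptide that beta cells release together with insulin, and amyloid forms from the human peptide but not from the rodent one. Calpastatin, the product of CAST, inhibits the calpain proteases. The insulin promoter directs these transgenes to beta cells, so the alpha cells were not the cells in which they were driven.

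Alpha cells raise blood glucose by secreting glucagon, which is cut from the product of Gcg, and they respond to circulating amino acids. Irx1, Irx2 and Pou3f4 encode transcription factors of the alpha-cell lineage. Gc encodes the vitamin D binding protein and Ttr encodes transthyretin, a carrier of thyroxine and retinol binding protein, and both are made in large amounts by the liver. Slc7a2 encodes a transporter of cationic amino acids such as arginine, and Slc38a5 a transporter of glutamine and other neutral amino acids that is known to be induced in mouse alpha cells when glucagon signalling is blocked. Ttr and Slc7a2 are also expressed in beta cells. In islet RNA, fewer cells of a type and less RNA per cell cannot be told apart.

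On GRCm38, Gcg lies at chr2:62474530-62483650, Irx1 at chr13:71957921-71963723 and Irx2 at chr13:72628820-72634198. Pou3f4 lies at chrX:110814280-110817207, Gc at chr5:89417522-89457898, Slc38a5 at chrX:8271133-8280179 and Slc7a2 at chr8:40862396-40922308. All 8 are annotated as protein-coding. The promoters of Gcg and Gc are shown because Gcg was called in no comparison, whereas Gc had the largest log2 fold change of the 8 in rIAPP over WT. Each is the 250 bases before the RefSeq start on GRCm38.p6, on the minus strand, at chr2:62483654-62483903 for Gcg and chr5:89457899-89458148 for Gc.
Gcg: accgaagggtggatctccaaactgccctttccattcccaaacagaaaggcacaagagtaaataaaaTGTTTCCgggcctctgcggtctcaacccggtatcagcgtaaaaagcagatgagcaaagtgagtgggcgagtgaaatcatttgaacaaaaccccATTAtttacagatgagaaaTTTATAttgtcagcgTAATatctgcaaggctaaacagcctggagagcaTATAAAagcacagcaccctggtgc
Gc: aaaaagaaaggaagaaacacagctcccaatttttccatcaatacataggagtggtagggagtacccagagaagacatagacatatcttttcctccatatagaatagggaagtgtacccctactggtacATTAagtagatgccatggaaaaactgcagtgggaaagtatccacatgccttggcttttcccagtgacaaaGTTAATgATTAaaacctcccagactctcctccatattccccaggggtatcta
Capitals mark matches, on either strand, to the TATA box TATAAA, the homeodomain core TAAT, the forkhead motif TGTTTNC and the HNF1 core GTTAAT, which itself contains TAAT. The Gcg window held TATAAA 24 bases before the start and TGTTTNC 184 bases before it, and the Gc window held GTTAAT 52 bases before the start. Of 32851 promoter windows of mouse genes, 12.37% held TATAAA, 54.92% TAAT, 17.84% TGTTTNC and 6.432% GTTAAT. The POU motif ATTTGCAT, held by 1.601% of windows, had no match in the windows of the 5 members with an entry, and TGCTGA, held by 16.08%, matched in Slc38a5 only. Such matches are descriptions of the letters. The entries covered Gcg, Gc, Irx2, Slc38a5 and Pou3f4, and those of Irx1, Slc7a2 and Ttr are not shown.

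Total counts per library were 28287011 to 40191501. Rn45s, Lars2 and Mir6236, called ribosomal-rich below, took 94.3% of the counts in WT 2, 68.9% in WT 3 and 67.7% in rIAPP 2, which left 1667190, 8796210 and 9510502 other counts there, against 30199765 to 40062153 in the other libraries. The summed level of 10 beta-cell genes was 39143 to 50921 CPM in rIAPP and 74059 to 84607 CPM in hIAPP, against 116040 to 125850 CPM in WT. That of 14 acinar genes was 75274 to 105440 CPM in rIAPP and 12421 to 56553 in WT. Other cell types moved too. In rIAPP over WT, 4 of 4 stellate genes rose (median log2 fold change 1.75), as did 3 of 4 endothelial genes and 3 of 3 tested progenitor genes. Of all tested genes, 10.7% rose there. In hIAPP over WT, 4 of 4 stellate genes (median 1.57) and 5 of 5 macrophage genes rose, against 6.27% of all tested genes. The numbers in the sample titles lie in a shared range for WT and hCAST, in another for hIAPP and hIAPP_hCAST, and apart for rIAPP. What those ranges stand for cannot be told apart from the groups, except in the comparisons of hCAST with WT and of hIAPP_hCAST with hIAPP. Levels below are CPM, read counts relative to library size after TMM scaling, and log2 fold changes carry the standard error (SE) of edgeR's quasi-likelihood test over all 15 libraries.

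Gcg, the hormone gene that defines the cell type, was abundant everywhere and was called in no comparison. It had 18321, 20895 and 16553 CPM in rIAPP 1, 2 and 3, then 16040, 16575 and 16190 CPM in hIAPP. It had 16446, 17346 and 17690 CPM in hIAPP_hCAST, 17838, 16282 and 16403 in hCAST, and 16351, 14864 and 14255 in WT. The 3 rIAPP libraries all lay above the 3 WT libraries, while hIAPP and hCAST overlapped with WT. The log2 fold change was 0.29 ± 0.105 in rIAPP over WT (edgeR adjusted p = 0.0522), just short of the 0.05 threshold, and 0.10 ± 0.105 in hIAPP over WT (adjusted p = 0.570). The rIAPP value passed without rIAPP 3 (adjusted p = 0.0281), without WT 1 (0.0336), with upper-quartile scaling (0.0286), with the ribosomal-rich genes left out (0.0363) and with DESeq2 (0.00295). It did not pass in the other 11 of 16 alternatives. The log2 fold change was 0.085 without the 3 ribosomal-rich libraries, a fit that left WT 1 as the only WT library. It was 0.14 (adjusted p = 0.372) with hCAST in place of WT. Between hIAPP and rIAPP it was -0.19 ± 0.105 (adjusted p = 0.281). Of 10 beta-cell genes, 10 fell in rIAPP over WT (median log2 fold change -1.54) and 8 fell in hIAPP over WT (median -0.67). Of all tested genes, 12.6% fell in rIAPP over WT and 5.59% in hIAPP over WT. The part of the beta-cell genes in the Gcg values was not tested. In hIAPP_hCAST the 3 libraries lay above WT as well, and the difference did not pass (adjusted p = 0.381).

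**Figure D1:**
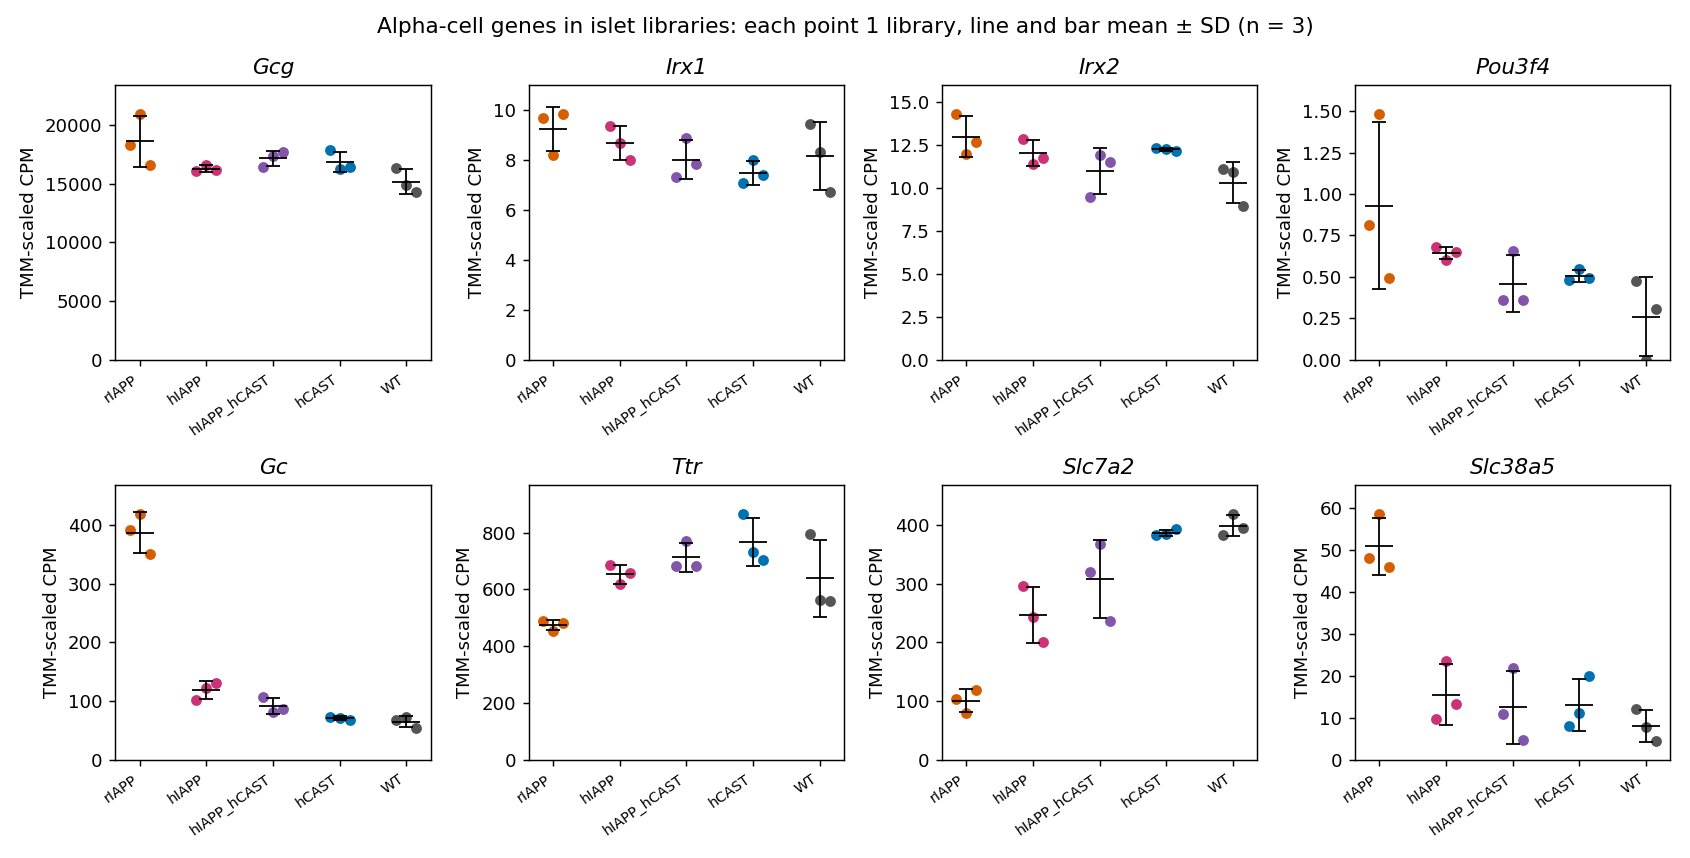
TMM-scaled CPM of the 8 genes (vertical axes, linear from 0) in the 5 groups (horizontal axes). Each point is 1 library, the line is the mean and the bar ± SD (n = 3); Gc stood at 351 to 419 CPM in rIAPP and 54.4 to 72.7 in WT, while Slc7a2 stood at 80.1 to 118 in rIAPP and 383 to 419 in WT.

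Of the lineage transcription factors, Irx2 passed in rIAPP over WT, and Irx1 and Pou3f4 passed in no comparison. Irx1 had 9.66, 8.21 and 9.82 CPM in rIAPP, 9.37, 8.68 and 7.99 in hIAPP, 7.33, 8.86 and 7.82 in hIAPP_hCAST, 7.06, 8.02 and 7.38 in hCAST, and 9.44, 8.32 and 6.71 in WT. The ranges of rIAPP and hIAPP overlapped with that of WT, and no comparison of Irx1 passed (log2 fold change 0.17 ± 0.138 in rIAPP, adjusted p = 0.410; 0.067 ± 0.136 in hIAPP, adjusted p = 0.879). Irx2 had 14.3, 12.0 and 12.7 CPM in rIAPP, 12.9, 11.4 and 11.8 in hIAPP, 9.47, 12.0 and 11.5 in hIAPP_hCAST, 12.3, 12.3 and 12.2 in hCAST, and 11.1, 10.9 and 8.94 in WT. All rIAPP, hIAPP and hCAST libraries lay above all WT libraries. Irx2 rose in rIAPP by 0.35 ± 0.120 on the log2 scale (edgeR adjusted p = 0.0470), a call that 10 of 16 alternatives lost, among them leaving out rIAPP 1 (0.187), rIAPP 3 (0.0745) or WT 3 (0.231) and setting hCAST in place of WT (0.596). In hIAPP it did not pass (0.23 ± 0.119, adjusted p = 0.228). The long noncoding RNA gene Gm20554 ends 256 bases from Irx2. Pou3f4 was near the limit of detection, with 43, 20 and 22 counts in rIAPP, 36, 28 and 35 in hIAPP, 19, 34 and 23 in hIAPP_hCAST, 24, 30 and 26 in hCAST, and 22, 0 and 4 in WT. The 0 in WT 2 allows up to 3 counts, or 1.31 CPM in that shallow library, which is above the 0.815 CPM of rIAPP 1. Its log2 fold changes of 1.09 ± 0.468 in rIAPP (adjusted p = 0.105) and 0.70 ± 0.459 in hIAPP (adjusted p = 0.342) did not pass, although the rIAPP value did without rIAPP 3 (0.0404). Without WT 1, which left the ribosomal-rich WT 2 and WT 3, they were 1.73 and 1.32. Without the 3 ribosomal-rich libraries, which left WT 1 as the only WT library, they were 0.46 and 0.43.

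Gc, the vitamin D binding protein, rose in all 3 groups with an IAPP transgene, and the most in rIAPP. It had 393, 419 and 351 CPM in rIAPP, 101, 122 and 131 in hIAPP, 107, 80.8 and 86.8 in hIAPP_hCAST, 73.3, 71.3 and 67.0 in hCAST, and 66.7, 72.7 and 54.4 in WT. Every rIAPP library was above every hIAPP library, and every hIAPP and hIAPP_hCAST library above every WT library. The log2 fold change over WT was 2.61 ± 0.130 in rIAPP (edgeR adjusted p = 2.29e-09) and 0.89 ± 0.125 in hIAPP (adjusted p = 0.000506). The rIAPP call held in all 16 alternatives tried. The rise was smaller in hIAPP, with a log2 fold change of -1.71 ± 0.121 in hIAPP over rIAPP (adjusted p = 1.26e-07). Over the 15 libraries log2 CPM of Gc correlated with the summed endothelial genes at r = 0.80 and the summed stellate genes at r = 0.70, and at -0.22 and -0.16 with group means removed; these points share libraries and scaling, and the part of those cells in the Gc values was not tested. In hIAPP_hCAST over WT, Gc rose by 0.52 ± 0.124 (adjusted p = 0.0327). That call was lost without hIAPP_hCAST 1 (0.0884), WT 1 (0.0555) or WT 3 (0.145), in a fit of the compared groups alone (0.192) and against hCAST (0.212). Without the 3 ribosomal-rich libraries, which left WT 1 as the only WT library, the log2 fold change was 0.45. In hCAST over WT the value was 0.15 ± 0.124 (adjusted p = 0.871).

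Gc is a liver gene too, and 6 hepatocyte genes summed to 4.37 to 4.81 CPM in rIAPP, 2.16 to 4.55 in hIAPP and 2.82 to 3.50 in WT. In rIAPP libraries Alb had 2.75 to 2.89 CPM and Ahsg 0.666 to 1.10 CPM, against 1.89 to 3.50 CPM for Alb and 0 to 0.463 CPM for Ahsg in WT libraries. Of 4 tested hepatocyte genes, 1 rose in rIAPP over WT (Apoa1, edgeR adjusted p = 0.0496), 0 fell, and 2 were higher without overlap. Of all 15460 tested genes, 10.7% rose there, 12.6% fell and 3348 were higher without overlap. Over all 15 libraries Serpina1a was at 0 in 12 and Apoc3 in 5. The part of liver RNA in the Gc values was not tested. Slc4a4, a bicarbonate cotransporter 177869 bases away on chromosome 5, was the nearest gene to the left of Gc among those tested. Slc4a4 averaged 12.0 ± 1.32 CPM in rIAPP libraries, against 8.56 ± 0.981 CPM in WT libraries (SD, n = 3 each), and rose by 0.53 ± 0.128 (edgeR adjusted p = 0.00613). In hIAPP over WT, where Gc rose, the Slc4a4 value was -0.28 ± 0.127 (adjusted p = 0.167). Adamts3, a metalloprotease gene 219189 bases away, was the nearest tested gene to the right. It had 0.272 ± 0.127 CPM in rIAPP and 0.182 ± 0.228 in WT and did not pass (adjusted p = 0.146).

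Ttr, the second most abundant of the 8 genes per length, fell in rIAPP and did not pass in hIAPP. The gene lies at chr18:20665280-20674321 on GRCm38. It had 488, 454 and 480.4 CPM in rIAPP, 686, 619 and 657 in hIAPP, 684, 772 and 684 in hIAPP_hCAST, 865, 732 and 704 in hCAST, and 796, 562 and 559 in WT. All rIAPP libraries were below all others, and WT 1 stood apart from the other WT libraries. The log2 fold change was -0.43 ± 0.122 in rIAPP over WT (edgeR adjusted p = 0.0164) and 0.031 ± 0.122 in hIAPP over WT (adjusted p = 0.916). The rIAPP call was lost without rIAPP 2 (0.0604) or WT 1 (0.116), and without WT 1 the log2 fold change was -0.23. Without the 3 ribosomal-rich libraries, which left WT 1 as the only WT library, it was -0.72. With hCAST in place of WT it was -0.69 (adjusted p = 0.000536). In hIAPP over rIAPP, Ttr was higher by 0.46 ± 0.122 (adjusted p = 0.0168), a call lost without rIAPP 2 (0.0726) or hIAPP 1 (0.0693).

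Slc7a2, the arginine transporter, moved opposite to Gc. It had 104, 80.1 and 118 CPM in rIAPP, 296, 244 and 201 in hIAPP, 319, 368 and 237 in hIAPP_hCAST, 383, 384 and 392 in hCAST, and 383, 419 and 396 in WT. The rIAPP, hIAPP and hIAPP_hCAST libraries all lay below all WT libraries, and the hCAST libraries lay within or next to the WT range. Slc7a2 fell by 1.98 ± 0.171 on the log2 scale in rIAPP over WT (edgeR adjusted p = 1.43e-06) and by 0.69 ± 0.165 in hIAPP over WT (adjusted p = 0.0164). The hIAPP call was lost without hIAPP 2 (0.0545), hIAPP 3 (0.0635) or WT 2 (0.0521). Without the 3 ribosomal-rich libraries, which left WT 1 as the only WT library, the hIAPP value was -0.64. Slc7a2 was higher in hIAPP than in rIAPP by 1.29 ± 0.166 (adjusted p = 9.96e-05). In hIAPP_hCAST over WT the log2 fold change was -0.37 ± 0.164 (adjusted p = 0.231) and in hCAST over WT -0.044 ± 0.164 (adjusted p = 1.0). Over the 15 libraries the summed beta-cell genes correlated with log2 CPM of Slc7a2 at r = 0.93 and with that of Gc at r = -0.93. With group means removed, the summed beta-cell genes had r = 0.41 with Slc7a2 and 0.039 with Gc. These points share libraries and scaling, and the part of beta-cell RNA in the values of either gene was not tested.

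Slc38a5, the glutamine transporter, was high in rIAPP and followed acinar RNA within groups. It had 48.1, 58.6 and 46.1 CPM in rIAPP, 9.65, 23.6 and 13.2 in hIAPP, 10.9, 21.9 and 4.70 in hIAPP_hCAST, 8.07, 11.1 and 20.1 in hCAST, and 12.0, 7.88 and 4.40 in WT. All rIAPP libraries were above all other libraries, and the other groups overlapped with one another. The log2 fold change was 2.53 ± 0.648 in rIAPP over WT (edgeR adjusted p = 0.0174), a call lost without WT 3 (0.0743). In hIAPP over WT it was 0.82 ± 0.637 (adjusted p = 0.448). Without the 3 ribosomal-rich libraries, which left WT 1 as the only WT library, it was 1.97 in rIAPP and 0.36 in hIAPP. Without WT 1 it was 3.31 in rIAPP and 1.58 in hIAPP, and without hIAPP 2 it was 0.38 in hIAPP. In hIAPP over rIAPP it was -1.72 ± 0.559 (adjusted p = 0.0748). That difference passed in 3 of 15 alternatives: with DESeq2 (0.0209), in a fit of the compared groups alone (0.0446) and with the acinar covariate described below. None of the 14 acinar genes was at 0 in any library, 0 passed in rIAPP over WT, and all 14 were higher there without overlap. Of all 15460 tested genes, 23.3% passed in rIAPP over WT and 3348 were higher without overlap. Over 15 libraries Slc38a5 correlated with the summed acinar genes at r = 0.84, and at r = 0.94 with group means removed. These points share libraries and scaling. Per 10000 CPM of acinar genes Slc38a5 stood at 5.56 to 6.39 CPM in rIAPP, 1.82 to 2.77 in hIAPP, 2.36 to 3.00 in hCAST and 2.11 to 3.54 in WT. In hIAPP_hCAST it was 2.04 to 6.40, the highest from hIAPP_hCAST 3, whose acinar genes summed to only 7353 CPM. With acinar level as a covariate, an alternative chosen after the data were seen, the log2 fold change in rIAPP over WT was 1.72 (adjusted p = 0.000177). The summed acinar levels of rIAPP (75274 to 105440 CPM) and WT (12421 to 56553 CPM) did not overlap. That fit therefore cannot tell acinar level from group in rIAPP over WT. In hIAPP over rIAPP the same fit passed (edgeR adjusted p = 4.96e-05). There the summed acinar levels of hIAPP (47541 to 105360 CPM) overlapped with those of rIAPP. The part of acinar RNA in the Slc38a5 values was not tested.

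**Figure D2:**
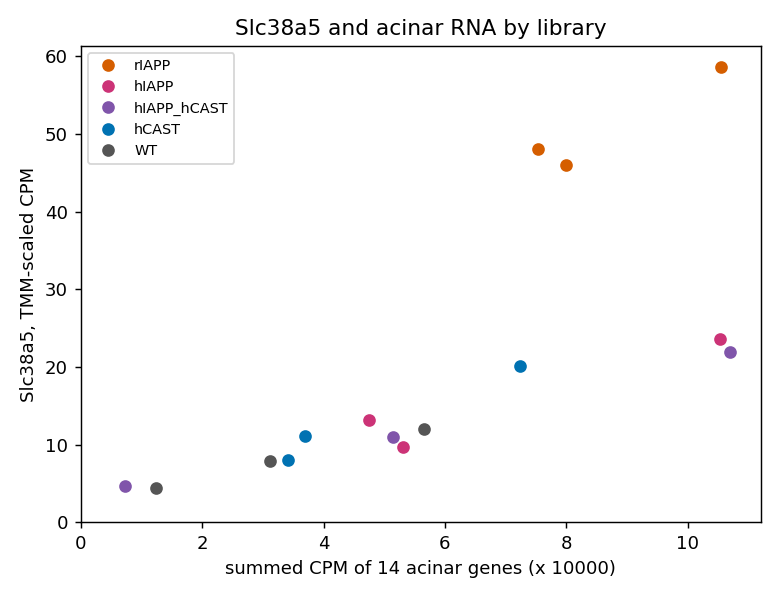
Slc38a5 in TMM-scaled CPM (vertical axis) against the summed CPM of 14 acinar genes in units of 10000 (horizontal axis), 1 point per library, coloured by group. The 3 rIAPP libraries, at 46.1 to 58.6 CPM, lie above the other libraries, which rise with acinar level.

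Set side by side, 5 of the 8 genes passed in rIAPP over WT, 3 higher (Gc, Slc38a5, Irx2) and 2 lower (Slc7a2, Ttr), where 23.3% of all tested genes passed, 10.7% higher and 12.6% lower. The groups did not overlap for 7 of the 8, against 40.6% of all genes. The median log2 fold change of the 8 was 0.32, against 0.011 over all tested genes. In hIAPP over WT, 2 passed (Gc higher, Slc7a2 lower) against 11.9% of all genes, 6.27% higher and 5.59% lower. The groups did not overlap for 4 of the 8, against 33.1% of all genes, and the median was 0.16 for the 8 and 0.017 for all genes. In hIAPP over rIAPP, 3 passed (Slc7a2 and Ttr higher, Gc lower) against 13% of all genes, 7.71% higher and 5.28% lower. In hIAPP_hCAST over WT, 1 passed (Gc, higher) against 3.48% of all genes, of which 1.69% were higher. These comparisons share libraries.

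**Figure D3:**
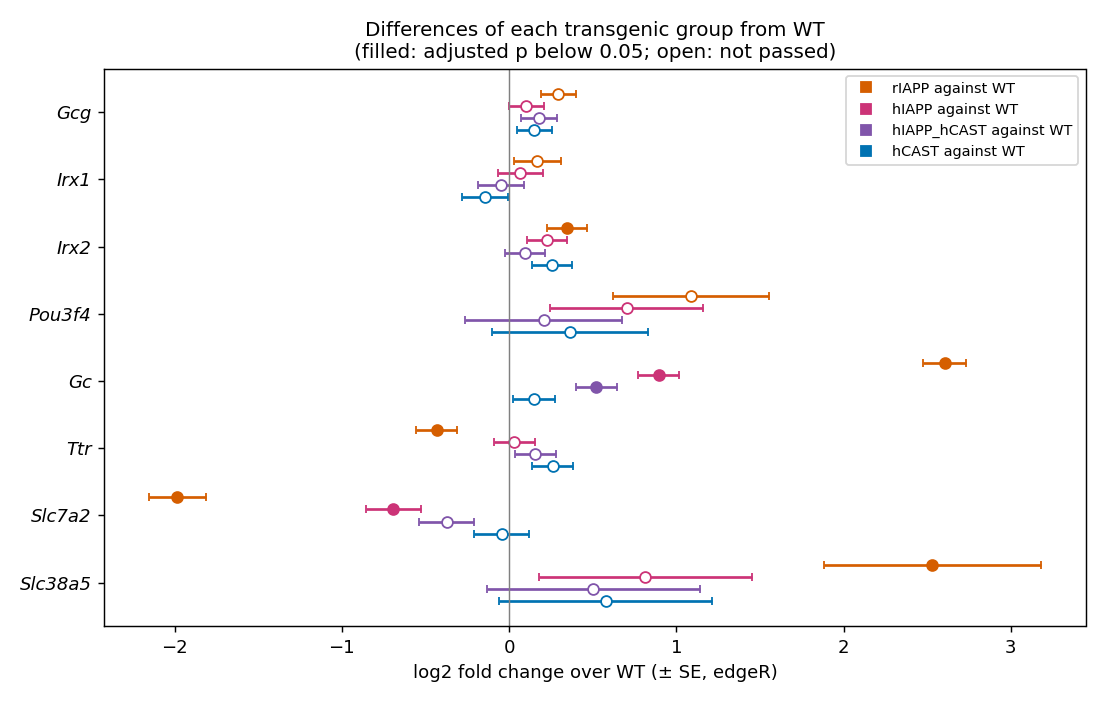
Log2 fold change over WT (horizontal axis, bars ± SE of edgeR) for the 8 genes and the 4 transgenic groups. Filled points have an adjusted p below 0.05 and open points do not; Gc at 2.61 and Slc7a2 at -1.98 in rIAPP lie farthest apart among genes of SE under 0.2.

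Adding the calpastatin transgene to WT or to hIAPP mice moved none of the 8 genes past the threshold. In hCAST over WT, edgeR called 0 of 8 (0.0194% of all genes passed) and DESeq2 0 (37 of all genes passed). An unadjusted edgeR p below 0.05 was held by 2 of the 8, Ttr and Irx2. They ranked only 1056 and 1067 by p among all tested genes. In hIAPP_hCAST over hIAPP both tools called 0 (0.466% of all genes by edgeR, 285 genes by DESeq2). Of the 8, 1 had an unadjusted edgeR p below 0.05, which was Gc, ranked 489 by p among all tested genes. The log2 fold change of Gc there was -0.37 ± 0.118 (adjusted p = 0.194), with overlapping ranges, and Slc7a2 had 0.32 ± 0.163 (adjusted p = 0.50). In hIAPP_hCAST over hCAST, 0 were called by both tools (0.75% of all genes by edgeR, 269 genes by DESeq2). Of the 8, 1 had an unadjusted edgeR p below 0.05, which was Gc, ranked 437 by p among all tested genes. Gc stood at 0.37 ± 0.118 (adjusted p = 0.212) and Slc7a2 at -0.33 ± 0.163 (adjusted p = 0.570). The interaction asks whether human IAPP acted differently on the hCAST and WT backgrounds. It called 0 members by both tools. Of all genes, edgeR called 0% and DESeq2 called 50 genes, so the tools differed there. An unadjusted edgeR p below 0.05 was held by 2 members, Gc and Irx2, ranked 291 and 828 by p among all tested genes. The interaction was -0.52 ± 0.171 for Gc (adjusted p = 0.419) and 0.36 ± 0.231 for Slc7a2 (adjusted p = 0.677).

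Ordered by group mean, Gc ran rIAPP, hIAPP, hIAPP_hCAST, hCAST, WT, and only the step between rIAPP and hIAPP passed the test among neighbours. Slc7a2 ran in the reverse order, and its only passing step was between hIAPP and rIAPP. For Ttr the order was hCAST, hIAPP_hCAST, hIAPP, WT, rIAPP, with the step between rIAPP and WT passing. For Gcg, Irx1, Irx2, Pou3f4 and Slc38a5 no neighbours in the order differed past the threshold. Per length, by the deposited FPKM, Gcg was the highest of the 8 in every library, holding 95.2% to 96.7% of their summed FPKM, and ranked 4 to 8 among all genes. Ttr came next in every library and Pou3f4 last.

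Measured inside each library against Gcg, which removes library scaling, Gc had 209 ± 7.28 counts per 10000 Gcg counts in rIAPP, 72.6 ± 8.96 in hIAPP, 53.5 ± 9.87 in hIAPP_hCAST, 41.9 ± 1.63 in hCAST and 42.6 ± 5.60 in WT (SD, n = 3). Slc7a2 had 55.4 ± 16.5 in rIAPP, 152 ± 30.6 in hIAPP, 179.9 ± 40.9 in hIAPP_hCAST, 229.97 ± 13.4 in hCAST and 264 ± 26.3 in WT. Ttr had 258 ± 37.2 in rIAPP and 419 ± 59.0 in WT, and Slc38a5 had 27.4 ± 0.978 in rIAPP and 5.23 ± 2.12 in WT. The ratios of Gc and Slc38a5 in rIAPP did not overlap with those in WT on the high side, and those of Slc7a2 and Ttr did not on the low side. With 3 libraries against 3, the two-sided exact permutation test gave p = 0.1 for Gc, the smallest it can give. For Irx1 and Irx2 the ratios overlapped, at 5.05 ± 1.02 and 7.07 ± 1.16 in rIAPP and 5.36 ± 0.572 and 6.81 ± 0.545 in WT.

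**Figure D4:**
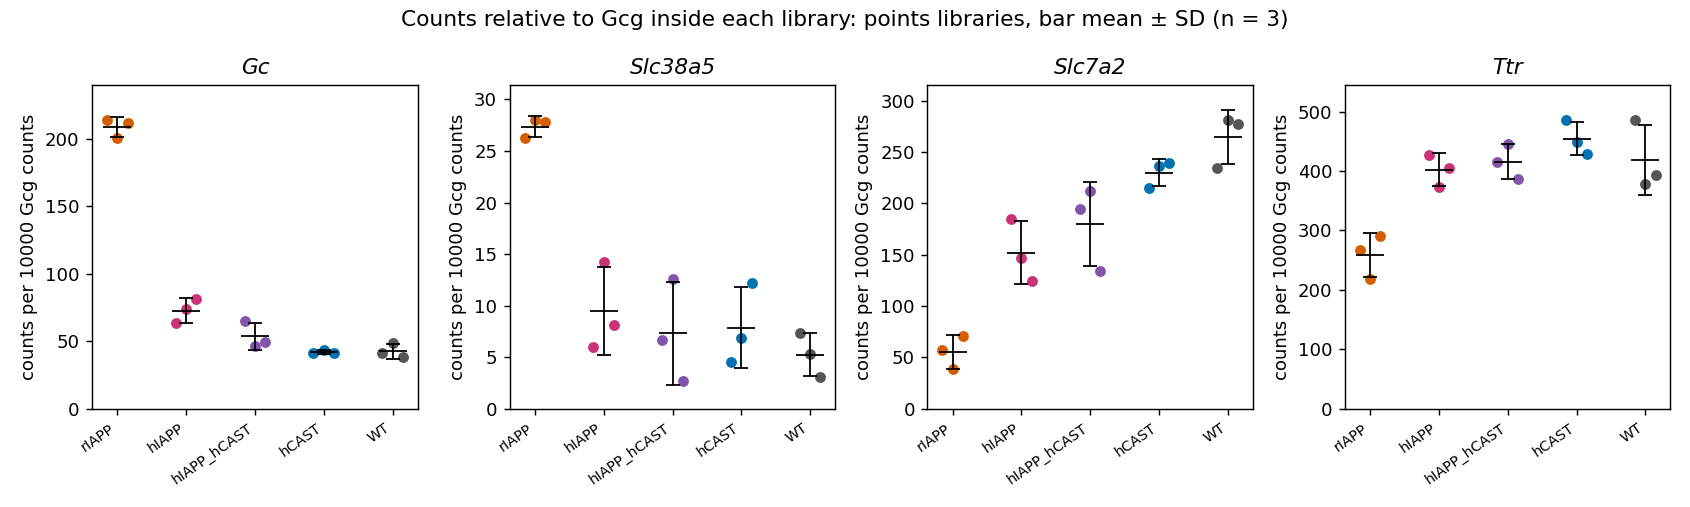
Counts of Gc, Slc38a5, Slc7a2 and Ttr per 10000 Gcg counts of the same library (vertical axes, linear from 0) by group (horizontal axes). Points are libraries, lines means and bars ± SD (n = 3); Gc stands at 209 in rIAPP and 42.6 in WT, and Slc7a2 at 55.4 in rIAPP and 264 in WT.

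The members did not vary as a unit. Over 15 libraries, log2 CPM of Gc and Slc7a2 had r = -0.97, Gc and Slc38a5 0.83, and Slc7a2 and Ttr 0.77. With group means removed the pairs had -0.43, 0.20 and 0.16, and the closest pair was Irx1 and Irx2 at 0.79. All of these share libraries and scaling. Among 13006 genes with a mean of at least 1 CPM, those most alike to Gc were Clcn5 (r = 0.98), Large (0.98) and Pla2g16 (0.97), which had 0.58, 0.77 and 0.40 with group means removed. Most alike to Slc7a2 were Sytl4, Akr1c12 and Gjd2 (0.99 each; 0.84, 0.95 and 0.75 with group means removed), and to Slc38a5 they were Ptpn3 (0.96), Rarres1 (0.96) and Aldh1a7 (0.95). For Ttr they were Prdx6 (0.97), Hist1h4j (0.93) and Dtnb (0.93), and for Gcg Tekt2 (0.92), Cct2 (0.90) and Ptcd3 (0.86). For Irx1, Irx2 and Pou3f4, the leading genes were Gm16432 (0.77), Usp30 (0.80) and Sec14l2 (0.96). Sytl4, a regulator of granule exocytosis, averaged 127 ± 22.4 CPM in rIAPP libraries, against 550.2 ± 53.0 CPM in WT libraries.

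Over all tested genes, 10.7% rose and 12.6% fell in rIAPP over WT, and 6.27% rose and 5.59% fell in hIAPP over WT, which is the background for the counts of small lists that follow. Around the 8 genes, the other alpha-cell factors and the proglucagon pathway mostly fell or did not pass, and most of these genes are expressed in beta cells as well. Of 10 tested transcription factors, 0 rose and 5 fell in rIAPP over WT, including the islet factors Neurod1 (-0.70), Foxa2 (-0.44), Pax6 (-0.42) and Rfx6 (-0.25). In hIAPP over WT, 5 of 10 fell, among them Meis2 (-0.43), Pax6 (-0.37), Foxa2 (-0.36) and Neurod1 (-0.59). Of 5 processing genes, 3 fell in rIAPP: the proconvertases Pcsk1 (-2.08) and Pcsk2 (-0.87), of which PCSK2 is the enzyme that releases glucagon, and the inhibitor Pcsk1n (-0.28). In hIAPP, Pcsk1 (-0.58) and Pcsk2 (-0.35) fell.

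Of 4 tested genes for receptors and breakdown of glucagon-family peptides, Glp1r (-2.06) and Gipr (-1.03) fell in rIAPP, and Glp1r (-0.76) and the peptidase gene Dpp4 (-0.36) fell in hIAPP. The glucagon receptor Gcgr passed in neither (-0.079 in rIAPP, 0.22 in hIAPP). Of 13 genes of amino acid transport and sensing, 3 rose and 2 fell in rIAPP: Slc1a5 (1.34), a neutral amino acid exchanger, and Slc7a1 (0.52), another cationic amino acid transporter, rose, while Slc38a4 (-1.45) and the calcium-sensing receptor gene Casr (-0.84) fell. In hIAPP, Slc1a5 (1.21) and Slc7a1 (0.37) rose and 0 fell. Of 5 tested partners of the carriers, 2 rose and 1 fell in rIAPP: Serpina7 (3.09), which encodes thyroxine-binding globulin, was among those that rose, and the vitamin D receptor gene Vdr (-1.02) fell. In hIAPP, 2 rose, among them Serpina7 (1.67), and Vdr (-0.96) and Alb (-1.31) fell. Of 7 further Irx and Pou3 genes 2 were tested, and Irx3 rose in rIAPP by 1.65 (edgeR adjusted p = 0.0300). Irx3 was low, at 1.05 to 2.73 CPM in rIAPP and 0 to 1.08 in WT, and these ranges overlapped. In WT 2, 3 counts were worth 1.31 CPM.

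The hormone genes Sst, Ppy and Pyy moved less than the insulin genes. In rIAPP over WT, Ins1 fell by 1.44 and Ins2 by 1.33 on the log2 scale, Sst fell by 0.30 (edgeR adjusted p = 0.0440), and Ppy (-0.27, adjusted p = 0.580) and Pyy (0.16, adjusted p = 0.655) did not pass. In hIAPP over WT, Ins1 fell by 0.54 and Ins2 by 0.71, and Sst (-0.20), Ppy (-0.14) and Pyy (0.24) did not pass.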

How the data were processed

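Ribosomal RNA was depleted (Ribo-Zero) and TruSeq and NuGEN Ovation chemistry was used for the islet libraries, per the labels' protocols. The authors deposited whole-number read counts per gene symbol and a table of FPKM, and the submitters' processing notes name STAR, HTSeq, GRCm38 and mm10. Annotation, strand setting and treatment of multi-mapping reads are not given in the sources used here, so overlapping genes are uncertain. Each of the 15 columns was matched by title, and 0 columns were unused. The deposited FPKM were used for levels between genes and as alternatives; their totals include ribosomal reads. Reads of the human transgenes were not used here.

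The count test was that of edgeR 4.0.16 (limma 3.58.1, R 4.3.3): filterByExpr, TMM, robust quasi-likelihood fit of 5 groups, 11 contrasts, Benjamini-Hochberg over 15460 genes, called at 0.05. The SE was the log2 fold change over the square root of F. Alternatives used DESeq2 1.42.0, other scalings and filters, fewer libraries and FPKM. The procedure was tested on simulated counts that left out Rn45s, Lars2 and Mir6236. That simulation cannot tell how the scaling fared in the ribosomal-rich libraries. Positions are from a GRCm38 annotation and promoters from RefSeq. All 8 members were named; from each other list up to 4 genes with the smallest p, and Pcsk2, Ins1, Ins2, Sst, Ppy and Pyy always, and the 3 genes most alike to each member by rule; some genes that the rule names are not reported here. Members and lists were chosen with earlier results of these data known. Nothing states that replicates are separate animals, so p-values measure only the spread between these samples.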

Additional observations from a re-analysis of the deposited data

How the results depend on the processing

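No paired analysis was possible because replicate numbers follow accession order and title numbers are not shared between groups. Of 31 log2 fold changes reported for the members, 11 passed, and 5 of those kept direction and call in every count-based alternative; none of the 11 reversed there. Leaving out 1 library, the number of members passing was 3 to 6 in rIAPP over WT, 1 to 2 in hIAPP over WT, 0 to 1 in hIAPP_hCAST over WT and 2 to 3 in hIAPP over rIAPP, while 2623 to 3335, 995 to 1414, 209 to 936 and 1302 to 1728 of the genes tested in each fit passed. The filter on low counts was rerun in each of those fits, so their tested genes can differ from the 15460 of the main fit. With all libraries, 3599, 1833 and 538 of all genes passed in the first 3 of these comparisons. Without the 3 ribosomal-rich libraries, WT 1 was the only WT library left, so no count of calls over WT is given for that fit. In hIAPP_hCAST over WT the number of members passing was 0 with the compared groups alone or hCAST in place of WT. On log2(FPKM + 1) and log2(FPKM + 0.1) it was 1 and 2 in rIAPP over WT, 0 and 7 in hIAPP over WT, 6 and 8 in hIAPP_hCAST over WT, 7 and 8 in hCAST over WT, and 0 and 0 in hIAPP over rIAPP. All genes passing there were 50 and 108, 487 and 12071, 11066 and 12328, 10637 and 12109, and 42 and 12 in the same order, so 6 to 8 of 8 members is near the share of all genes. FPKM also moved the median of all genes by 0.80, 1.26, 1.30, 1.26 and 0.40 with the pseudocount of 1. Signs turned on both FPKM scales for Ttr in rIAPP over WT (1.02, 1.03), Slc7a2 in hIAPP (1.19, 1.28), hIAPP_hCAST (1.55, 1.65) and hCAST (1.85, 1.95) over WT and in the interaction (-1.49, -1.58), and Gcg in hIAPP over rIAPP (0.37, 0.37). In hIAPP over WT, signs turned without the ribosomal-rich libraries for Gcg (-0.016), Irx1 (-0.13) and Ttr (-0.29), with hCAST as control for Gcg (-0.050), Irx2 (-0.028) and Ttr (-0.23), and with the acinar covariate, chosen after seeing the data, for Ttr (-0.024). Slc7a2 in hCAST over WT was 0.012 without the ribosomal-rich libraries. Leaving out 1 library gave -0.058 to 0.22 for Ttr and -0.082 to 0.28 for Irx1 in hIAPP over WT. The causes were not tested.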
